A study of Mus musculus with 6 samples.

Results

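Fibroblast growth factors (FGFs) are secreted signalling proteins, and the 9 genes described here are 5 ligands (Fgf1, Fgf2, Fgf7, Fgf10 and Fgf18) and 4 receptors (Fgfr1, Fgfr2, Fgfr3 and Fgfrl1). They were taken by gene symbol from a count table of 52997 symbols, which held all 9. Messenger RNA was sequenced from mesenchymal stromal cells, the matrix-building connective tissue cells, of 8-week-old C57BL/6 mice at rest. The cells came from hindlimb skeletal muscle (3 libraries) or from pooled inguinal, axillary, brachial and cervical lymph nodes (3 libraries), and no allele, transgene or agent is named for either tissue. Each library held 1000 cells sorted in 2 successive passes; the sources used here do not give the sort markers. The study describes 3 biological replicates per tissue. The count table numbers the muscle libraries 2, 3 and 4, while the sample titles carry 2a, 2b and 3, so it is not known which muscle columns share a number in the titles, or whether they share an animal. The p-values measure the spread between these libraries.

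FGFs bind receptor tyrosine kinases together with heparan sulfate chains, and the bound receptor signals through the adaptor FRS2 to the RAS and MAP kinase cascade, which switches on its own inhibitors of the Sprouty family. Ligands made by connective tissue often act on neighbouring epithelium, as Fgf7 and Fgf10 do through one splice form of Fgfr2, while connective tissue cells themselves mostly carry Fgfr1. The counts are per gene, so the splice forms that set which ligand a receptor binds were not measured.

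Total counts ran from 415460 to 2397134 per library, the lowest being muscle library 4. That library stood apart: its Pearson r of log2 CPM (counts scaled to library size) across the 10823 tested genes was at most 0.705 to any other library, while the other pairs had r of at least 0.873. Genes are not independent replicates. It also held 427 CPM of summed T cell markers (8 genes), 2960 CPM of B cell markers (7 genes), 121 CPM of myeloid markers (8 genes) and 626 CPM of erythroid markers (5 genes). The other 5 libraries held between 2.28 and 10.9, between 19.4 and 273, between 7.91 and 21.4, and between 6.85 and 13.1 CPM of these lists. The fit of each tested FGF gene is therefore given with and without muscle library 4. Other values are from all 6 libraries unless stated. Stromal markers were high in every library, with Pdgfra, a receptor that marks these cells, averaging 1058 CPM over the muscle libraries, against 1408 CPM over those of lymph node. Endothelial markers (9 genes) summed to 274, 384 and 242 CPM in muscle, against 273, 283 and 351 CPM in lymph node. Tek, a receptor tyrosine kinase, made most of that sum in every library except muscle library 4. It measured 263, 366 and 121 CPM in muscle, against 260, 272 and 340 CPM in lymph node. Pecam1, from the same list, had 4, 5 and 22 counts in muscle and 4, 3 and 6 in lymph node, and Cldn5 had 0 in all 6 libraries. The 22 Pecam1 counts were in muscle library 4, where 1 count is worth 2.69 CPM, against at most 0.768 CPM elsewhere. Of the genes that define lymph node reticular cells, Cxcl13 had 28, 3 and 1 counts in muscle, against 648, 794 and 901 in lymph node, whereas Ccl19 had 4, 8 and 5 lymph node counts and Ccl21a had 0 in all 6 libraries.

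The comparison asked at which levels stromal cells of muscle and of lymph node express the FGF genes. Fgf10 fell 11.8-fold in muscle and Fgf1 rose 5.01-fold (edgeR quasi-likelihood F test, two-sided, adjusted over all tested genes; a gene with an adjusted p under 0.05 is termed called). Fgf7 had a lower mean in muscle and passed the threshold only when muscle library 4 was left out or summed with another muscle library. Fgf2 and the receptors Fgfr1, Fgfr2 and Fgfrl1 were not called. Of the 9 genes, 7 passed the filter on low counts, and Fgf18 and Fgfr3 did not. Over all 10823 tested genes, 1.46% were called higher and 2.86% lower in muscle, beside 1 higher and 1 lower among the 7. Without muscle library 4 the shares were 4.79% and 7.58% of 11246 genes, beside 1 higher (Fgf1) and 2 lower (Fgf10 and Fgf7) among the 8 FGF genes then tested. The 3 muscle libraries lay entirely above the lymph node libraries for Fgf1, and entirely below them for Fgf7, Fgf10 and Fgfrl1. Such a lack of overlap was seen in 9.93% (higher) and 13.7% (lower) of all tested genes. In bulk libraries such as these, fewer cells that express a gene and less RNA per cell cannot be told apart.

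**Figure D1:**
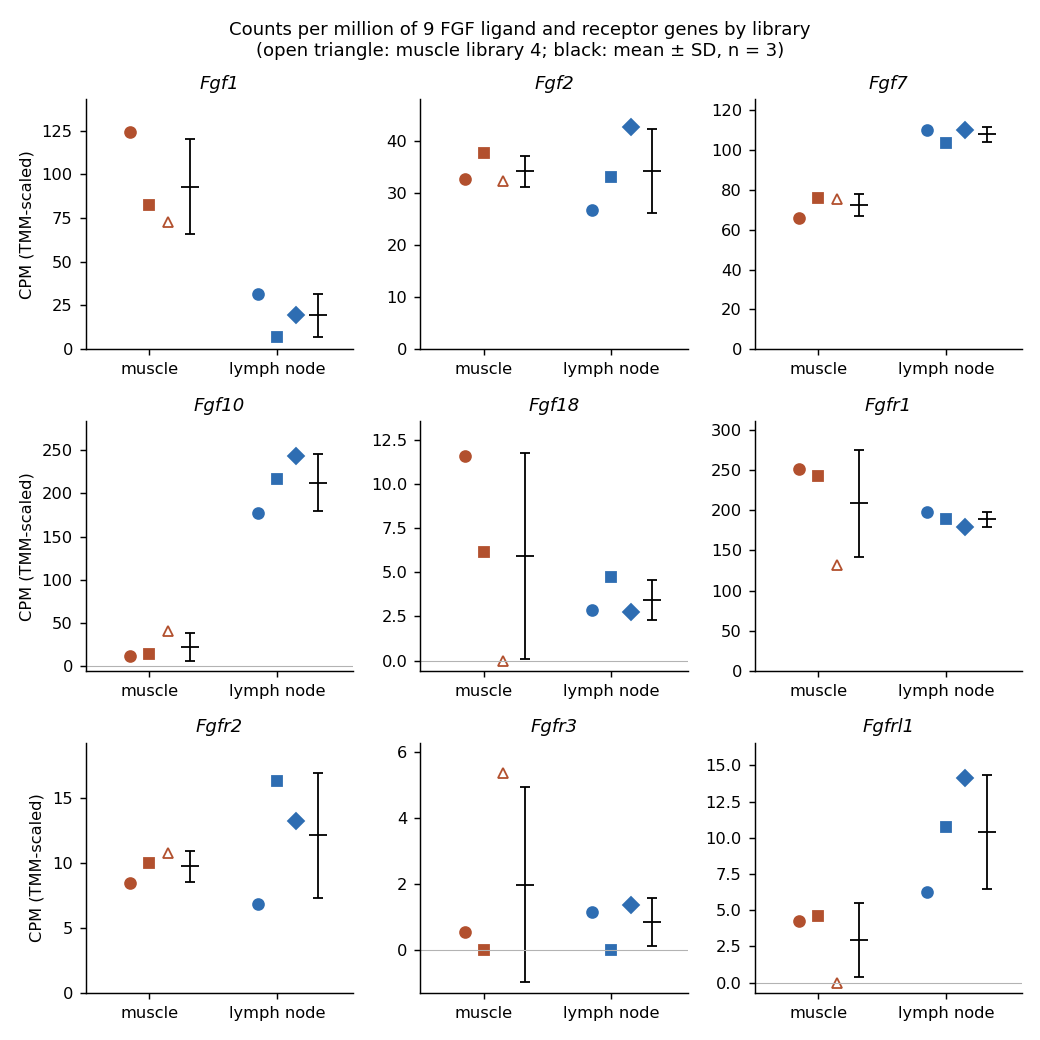
Scaled CPM (TMM) of each gene in the 3 muscle and 3 lymph node libraries, with the mean and SD of each tissue in black and muscle library 4 as an open triangle. All muscle points of Fgf10 lie at or below 40.3 CPM and all its lymph node points at or above 177 CPM, while those of Fgf1 run the other way.

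Fgf10 encodes a ligand that connective tissue makes during limb and lung outgrowth and that adult fat precursors also express. It measured 11.6, 14.6 and 40.3 CPM in muscle libraries 2, 3 and 4, against 177, 217 and 243 CPM in lymph node libraries 1 to 3 (called nodes 1 to 3 from here on). The highest muscle library, number 4, rests on 15 counts and still lay more than 4-fold below the lowest lymph node library. The tissue means were 22.2 ± 15.8 CPM over the muscle libraries, against 212 ± 33.3 over the nodes (SD, n = 3 each). The fitted log2 fold change is given as muscle minus lymph node throughout and was -3.56 ± 0.40 for Fgf10 (SE, edgeR adjusted p = 0.00131). Leaving out muscle library 4 gave -4.04 ± 0.23 (adjusted p = 3.78e-08), a 16.5-fold difference. Fgf10 was called under all 15 alternative settings, with log2 fold changes between -4.04 and -3.19. The gene lies on chromosome 13, 118669791 to 118792115, plus strand (GRCm38, GENCODE M21). Exons of an antisense gene, Gm16263, overlap 2.67% of its exon bases. Gm16263 had 0, 1 and 0 counts in muscle and 17, 13 and 13 in lymph node, and since strand use in counting is not stated, reads of the overlap cannot be assigned. Summed lymph node reticular markers (9 genes) were also lower in muscle, at 605, 629 and 567 CPM, against 1607, 1550 and 1585 CPM in the nodes. Of the 5 tested genes of that list, 2 were called lower in muscle and 3 were not called, with a median log2 fold change of -0.36. The part of these markers in the Fgf10 result was not tested.

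Fgf7, the keratinocyte growth factor and the closest relative of Fgf10 among these ligands, also had its lower values in muscle, by a smaller amount. It measured 65.9, 76.1 and 75.3 CPM in muscle libraries 2, 3 and 4, against 110.2, 104 and 110.2 CPM in nodes 1 to 3. Both tissues were even, at 72.4 ± 5.64 CPM over the muscle libraries, against 108 ± 3.84 over the nodes (SD, n = 3 each), and did not overlap. The log2 fold change of -0.58 ± 0.19 did not pass the threshold (edgeR adjusted p = 0.153, 95% interval -1.01 to -0.16 before adjustment). The fit that left out muscle library 4 gave -0.62 ± 0.16 (adjusted p = 0.0178), so the size of the difference stayed nearly the same and the call changed. Over the 6 libraries Fgf7 and Fgf10 had a Pearson r of 0.961 in log2 CPM, and 0.977 over the 5 libraries without muscle library 4. This r describes points that share 2 tissues, so the difference between tissues enters it.

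Because both genes had lower means in muscle, the 250 bases before their RefSeq transcript starts (GRCm38.p6, plus strand) are shown, with that of Fgf2, a ligand that did not differ detectably, for contrast. The windows are chr13:118714449-118714698 for Fgf10, chr2:126034408-126034657 for Fgf7 and chr3:37348403-37348652 for Fgf2. GENCODE M21 starts Fgf10 and Fgf2 upstream of their windows, so both windows lie inside the genes as GENCODE draws them. Capitals mark matches on either strand to any of 8 searched motifs. These were the AP-1 site spelled TGANTCA, the cyclic AMP element spelled TGACGTCA, the box known as TATA spelled TATAAA and the GC box spelled GGGCGG. The others were the CCAAT box itself, the E-box spelled CACGTG, the forkhead site spelled TGTTTAC and the TEAD site spelled GGAATG. No marked matches overlap one another.
Fgf10: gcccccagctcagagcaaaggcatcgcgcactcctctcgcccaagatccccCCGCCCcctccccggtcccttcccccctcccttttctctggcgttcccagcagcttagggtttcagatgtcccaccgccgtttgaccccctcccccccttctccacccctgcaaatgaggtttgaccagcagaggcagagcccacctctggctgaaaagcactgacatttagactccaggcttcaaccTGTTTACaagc
Fgf7: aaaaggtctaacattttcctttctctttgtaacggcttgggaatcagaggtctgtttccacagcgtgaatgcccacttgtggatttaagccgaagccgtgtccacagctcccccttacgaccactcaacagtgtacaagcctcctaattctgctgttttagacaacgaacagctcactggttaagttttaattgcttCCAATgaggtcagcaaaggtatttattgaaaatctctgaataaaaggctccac
Fgf2: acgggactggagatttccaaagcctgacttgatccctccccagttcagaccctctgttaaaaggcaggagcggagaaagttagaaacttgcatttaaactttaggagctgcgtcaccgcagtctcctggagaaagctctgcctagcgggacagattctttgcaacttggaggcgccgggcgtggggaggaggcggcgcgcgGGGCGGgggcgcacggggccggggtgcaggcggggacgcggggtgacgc
The Fgf10 window held a forkhead match beginning 11 bases before the start, found in 3.17% of 32851 promoter windows of this length, and a GC box on the minus strand beginning 199 bases before it, found in 32.7%. The Fgf7 window held 1 CCAAT box, beginning 53 bases before the start (33.9% of windows), and the Fgf2 window 1 GC box, 49 bases before it. None of the 3 windows held the AP-1 letters, which 6.75% of windows do. The GC content was 61.2% for Fgf10, 43.6% for Fgf7 and 62.4% for Fgf2, against a median of 52.4% over all windows. RefSeq windows were given for 7 of the 9 genes. A match is only a description of letters.

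Fgf10 and Fgf7 differed unequally within single libraries, a comparison that needs no scaling between libraries. There were 0.176, 0.192 and 0.536 Fgf10 counts per Fgf7 count in muscle libraries 2, 3 and 4, against 1.61, 2.10 and 2.21 in nodes 1 to 3. The exact 95% counting interval of muscle library 4, 0.266 to 1.04, ended below the lowest lymph node interval, which began at 1.34. On the log2 scale the mean ratio was -1.93 ± 0.89 in muscle and 0.96 ± 0.25 in lymph node (SD, n = 3 each), without overlap (exact permutation test, two-sided, p = 0.1, the smallest that 3 against 3 libraries allow). These ratios are not corrected for transcript length, and the intervals cover counting error only.

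**Figure D2:**
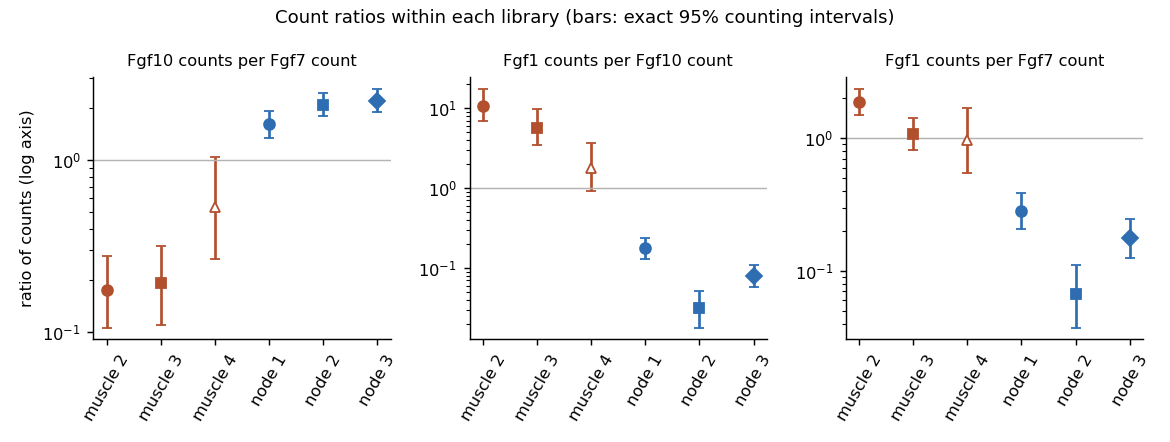
Ratios of raw counts within each library, on log axes, with exact 95% counting intervals; muscle libraries are at the left of each panel, muscle library 4 is the open triangle. Fgf10 counts per Fgf7 count are below 1 in every muscle library and above 1 in every lymph node library, and Fgf1 counts per Fgf10 count run the opposite way. The ratios with Fgf1 had to separate the tissues, because Fgf1 and its partner genes each did so already, in opposite directions.

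Fgf1, the acidic FGF, leaves cells without a classical signal peptide and can bind all of the signalling FGF receptors. It measured 124, 82.2 and 72.6 CPM in muscle libraries 2, 3 and 4, against 31.4, 6.87 and 19.6 CPM in nodes 1 to 3. Every muscle library was more than 2-fold above the highest lymph node library, and the lymph node libraries differed among themselves more than those of muscle did, relative to their mean. The means were 92.9 ± 27.3 CPM over the muscle libraries, against 19.3 ± 12.3 over the nodes (SD, n = 3 each), with a log2 fold change of 2.33 ± 0.46 (edgeR adjusted p = 0.0208). Leaving out muscle library 4 gave 2.47 ± 0.36 (adjusted p = 3.05e-04). The call was lost without muscle library 2 or 3 (adjusted p = 0.110 and 0.0671) and without lymph node library 2 or 3 (0.0679 and 0.148), with log2 fold changes from 1.87 to 2.82 over all single omissions. It was also lost when muscle libraries 2 and 3 were summed into 1 (adjusted p = 0.0896). Fgf1 lies on chromosome 18, 38838673 to 38929472, minus strand, and 0.4% of the 25-base words of its transcripts occur in other genes. Fgf1 counts per Fgf10 count were 10.7, 5.63 and 1.80 in muscle libraries 2, 3 and 4, against 0.177, 0.0317 and 0.0805 in nodes 1 to 3 (exact permutation p = 0.1, two-sided). Fgf1 was higher and Fgf10 lower in every muscle library than in every node, so these ratios could not overlap. Their p was thus fixed in advance, and they add no separate support. Summed markers of muscle fibres and satellite cells (10 genes) moved with tissue in part, at 60.1, 75.3 and 13.4 CPM in muscle libraries 2, 3 and 4, against 8.57, 13.3 and 16.4 CPM in nodes 1 to 3, with Acta1, the skeletal muscle actin, at 67, 42 and 0 counts in muscle. Summed markers of mural cells, the contractile cells around vessels (8 genes), lay higher in muscle without overlap, at 139.8, 152.1 and 145.2 CPM, against 77.1, 55.8 and 47.3 CPM in the nodes. Of 3 tested mural genes 1 rose in muscle, Cspg4, at 73.3, 81.5 and 69.9 CPM in muscle, against 6.85, 9.45 and 11.4 CPM in the nodes, and Des was called as well without muscle library 4. Cspg4 made most of the difference between tissues in the mural sum, and the rest of the sum overlapped between them. Rgs5, also of that list, had 2, 2 and 4 counts in muscle and 9, 9 and 2 in lymph node. The part of these cell types in the Fgf1 result was not tested.

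Fgf2, the basic FGF, known in muscle as a factor that makes satellite cells divide, did not separate the tissues. It measured 32.7, 37.7 and 32.3 CPM in muscle libraries 2, 3 and 4, against 26.8, 33.1 and 42.8 CPM in nodes 1 to 3. The lymph node libraries enclosed all muscle values. The log2 fold change was 0.00 ± 0.27 (edgeR adjusted p = 0.998), with a 95% interval from -0.60 to 0.61 before adjustment. Differences inside that interval are compatible with these libraries. Without muscle library 4 the log2 fold change was 0.02 ± 0.24 (edgeR adjusted p = 0.982). Its sign turned under several settings. Exons of Nudt6 on the opposite strand cover 9.44% of its exon bases, and Nudt6 itself had between 0 and 6 counts per library. Since strand use in counting is not stated, reads of this overlap cannot be assigned either.

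Fgf18, a ligand best known for regulating cartilage and bone growth, was scarce and did not pass the filter. It had 22, 8 and 0 counts in muscle libraries 2, 3 and 4, against 5, 11 and 6 in nodes 1 to 3. After scaling this was 11.6, 6.15 and 0 CPM in muscle, against 2.86, 4.73 and 2.73 CPM in the nodes. The 0 of muscle library 4 allows up to 8.06 CPM (3 counts), so at that depth the library could not be told from the nodes. The pooled count ratio, muscle over lymph node, was 2.40 with an exact 95% counting interval from 1.34 to 4.36, which leaves out the spread between libraries. Without muscle library 4 the gene was tested and not called (log2 fold change 1.37 ± 0.53, edgeR adjusted p = 0.123).

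Fgfr1, the receptor that most connective tissue cells carry, was the most abundant of the 4 receptors in all 6 libraries. It measured 251, 243 and 132 CPM in muscle libraries 2, 3 and 4, against 198, 189 and 179 CPM in nodes 1 to 3. Muscle libraries 2 and 3 lay above all lymph node libraries and library 4 below them. The log2 fold change was 0.17 ± 0.24 with all libraries (edgeR adjusted p = 0.817, 95% interval -0.38 to 0.72) and 0.38 ± 0.14 without muscle library 4 (adjusted p = 0.0909), and was not called in either fit. Fgfr1 made up between 88.2% and 91.3% of the summed CPM per kilobase of the 4 receptors in muscle, and between 73.5% and 86.7% in lymph node.

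Fgfr2, whose epithelial splice form receives Fgf7 and Fgf10, was low. It measured 8.44, 9.99 and 10.8 CPM in muscle libraries 2, 3 and 4, against 6.85, 16.3 and 13.2 CPM in nodes 1 to 3, which overlap. Its log2 fold change was -0.37 ± 0.46 (edgeR adjusted p = 0.793, 95% interval -1.40 to 0.66), and -0.44 ± 0.42 without muscle library 4 (adjusted p = 0.617). Exons of Ctbp2 on the same strand overlap 3.04% of the Fgfr2 exon bases. Ctbp2 had 22, 21 and 1 counts in muscle and 32, 44 and 26 in lymph node, and how reads of the overlap were counted is not known. Fgfr3, a receptor of cartilage and epithelium, had 1, 0 and 2 counts in muscle and 2, 0 and 3 in lymph node, and was not tested. The ratio of 3 to 5 pooled counts, 1.05 after scaling, had a 95% counting interval from 0.164 to 5.42. At 2 counts, the 5.38 CPM of muscle library 4 is no sign of a higher level.

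Fgfrl1 encodes a receptor that lacks the tyrosine kinase domain of the others. It measured 4.22, 4.61 and 0 CPM in muscle libraries 2, 3 and 4, against 6.28, 10.7 and 14.1 CPM in nodes 1 to 3. All muscle values were below all lymph node values, but the 0 of muscle library 4 allows up to 8.06 CPM, which is above lymph node library 1. The log2 fold change of -1.47 ± 0.61 was not called (edgeR adjusted p = 0.295), nor was that of -1.25 ± 0.50 without muscle library 4 (adjusted p = 0.139).

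**Figure D3:**
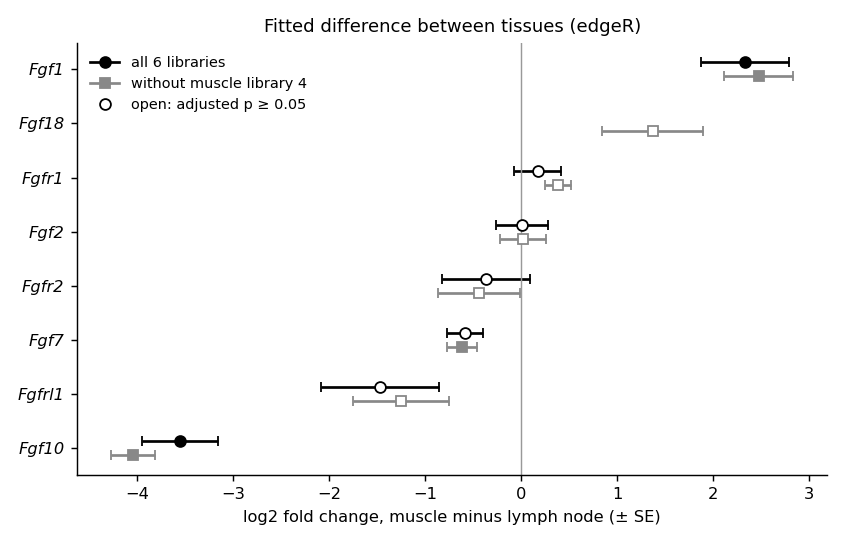
Fitted log2 fold changes, muscle minus lymph node, with standard errors, for all 6 libraries (circles) and without muscle library 4 (squares); filled symbols passed an adjusted p of 0.05. Fgf10 and Fgf1 are filled in both fits and lie on opposite sides of 0, and Fgf7 is filled only without muscle library 4.

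To compare levels between genes, CPM was divided by the kilobases of merged exons. In muscle the order was led by Fgf7 (22.3 ± 1.74 CPM per kb), Fgfr1 (21.1 ± 6.73) and Fgf1 (17.0 ± 5.00; SD, n = 3), whose libraries overlapped, so these 3 were not separated. Fgf2 (5.04 ± 0.44), Fgf18 (4.98 ± 4.89) and Fgf10 (4.82 ± 3.43) followed, overlapping one another, and Fgfrl1, Fgfr2 and Fgfr3 were lowest, at mean levels of 1.06 CPM per kb or less. In lymph node Fgf10 came first (46.2 ± 7.23 CPM per kb), then Fgf7 (33.2 ± 1.18) and Fgfr1 (19.1 ± 0.97), with no overlap between neighbours. Fgf2, Fgfrl1, Fgf1 and Fgf18 came next with means between 5.05 and 2.90 CPM per kb and overlapping libraries, and then Fgfr2 and Fgfr3. Of the summed CPM per kb of the 5 ligands, Fgf10 made up 4.196%, 6.06% and 17.5% in muscle libraries 2, 3 and 4, against 45.5%, 52.9% and 53.4% in nodes 1 to 3. Fgf1 held 37.7%, 28.7% and 26.6% in muscle and 6.80%, 1.41% and 3.62% in lymph node. The share of Fgf7 was 33.8%, 44.7% and 46.4% in muscle and 40.1%, 35.8% and 34.3% in lymph node. Merged exons overstate the length of a gene whose cells use a short transcript, so the order and the shares depend on these lengths, and transcript use in the 2 tissues was not measured.

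**Figure D4:**
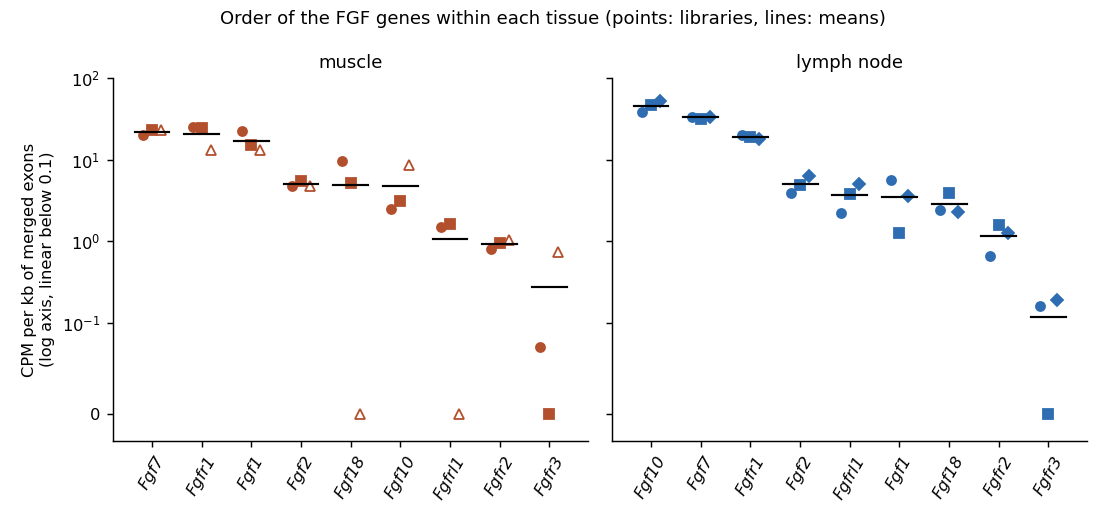
CPM per kilobase of merged exons on a log axis (linear below 0.1) for the 9 genes, ordered by mean in each tissue; points are libraries and lines are means, with muscle library 4 open. Fgf10 takes the sixth place in muscle and the first in lymph node, and Fgf1 the third in muscle and the sixth in lymph node.

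The genes whose log2 CPM varied most like each FGF gene over the 6 libraries were taken from 6686 genes of at least 20 mean CPM. For Fgf10 they were C4b, a complement component (r = 0.999, and 53.9% of its 25-base words occur in other genes, mostly C4a), and Pnp, a purine-salvage enzyme (r = 0.997, with 28.5% of words shared). For Fgf1 they were Map1a, which encodes a microtubule-associated protein (r = 0.985), and Aldh1a2, a retinoic acid-producing enzyme (r = 0.979). For Fgf7 they were Rtp4 (r = 0.998) and Slc43a1 (0.995), for Fgf2 Setd2 (0.981) and Plagl1 (0.980), and for Fgfr1 Nudt18 (0.997) and Coa3 (0.994). For Fgfr2 they were Ddx46 (0.973) and Slc6a8 (0.969), and for Fgfrl1 Asap3 (0.996) and Scara5 (0.994). Without muscle library 4 these r were at least 0.971. A high r does not mean a difference of like size. The log2 fold change of Map1a was 0.41 ± 0.21 (edgeR adjusted p = 0.434), far smaller than that of Fgf1. The difference between tissues can enter these r as well. Each r rests on 6 points, and other genes also had r above 0.95, in numbers that depended on the FGF gene. Of the 6686 genes, 92 did so with Fgf10 and 19 with Fgf1. Over the tested FGF genes the number ran from 4 (Fgfr2) to 210 (Fgfrl1).

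Few genes of the rest of the pathway were called. Of 58 tested genes for ligand binding, receptor partners, signal transduction and feedback, 2 rose in muscle, 1 fell and 55 were not called (edgeR, adjusted over all genes, to be read against the shares of 1.46% and 2.86% among all tested genes). Their median log2 fold change was 0.15, where that of all tested genes was 0.02. None of the other 17 FGF ligand genes, and none of Fgfr4 and the co-receptors Kl and Klb, had enough counts to be tested. Fgfr4 had 1, 0 and 0 counts in muscle and 1, 0 and 2 in lymph node.

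Among 20 tested genes that bind FGFs or build heparan sulfate, Gpc4, a glypican carrying such chains, rose in muscle, and 19 were not called (median log2 fold change -0.04). Gpc4 measured 74.9, 82.2 and 110.2 CPM in muscle libraries 2, 3 and 4, against 33.1, 34.8 and 34.1 CPM in nodes 1 to 3, without overlap (1.35 ± 0.22, edgeR adjusted p = 0.00922), and the call was lost on leaving out any single node (adjusted p up to 0.0842). The sulfatase Sulf1, which trims heparan sulfate, measured 407 ± 122 CPM over the muscle libraries, against 293 ± 21.0 over the nodes (SD, n = 3 each, edgeR adjusted p = 0.384, and 0.00228 without muscle library 4). Its relative Sulf2 (log2 fold change -0.43 ± 0.60) and the syndecan Sdc4 (-0.42 ± 0.23) were not called. Gpc1 and the carrier Fgfbp1 were below the filter, with at most 12 and 2 counts in any library. Of 5 tested receptor partners, the FLRT protein Flrt3, which binds FGF receptors, fell in muscle and the other 4 were not called. It measured 6.86, 6.92 and 21.5 CPM in muscle libraries 2, 3 and 4, against 28.0, 39.1 and 35.5 CPM in nodes 1 to 3 (-1.87 ± 0.44, edgeR adjusted p = 0.0496). This call lay at the threshold: RLE scaling gave 0.0544, and without any 1 library other than muscle library 4 it was between 0.143 and 0.275. Flrt2 measured 133 ± 66.1 CPM over the muscle libraries, against 254 ± 94.95 over the nodes (SD, n = 3 each) and was not called. Of 23 tested signal transduction genes none was called, by edgeR with or without muscle library 4.

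Sprouty proteins and ETV factors are switched on by FGF signalling and by other receptor kinases. Of 10 tested feedback and target genes 1 rose in muscle and the other 9 were not called, with a median log2 fold change of 0.68. The member that rose, Spry1, measured 64.9, 55.3 and 91.4 CPM in muscle libraries 2, 3 and 4, against 29.7, 28.8 and 24.1 CPM in nodes 1 to 3 (1.31 ± 0.25, edgeR adjusted p = 0.0190). The tissues did not overlap, and 24.4% of its exon bases lie opposite another gene model, Gm42922, that had at most 1 count in any library. How reads of that stretch were counted is not known. The call was lost on leaving out muscle library 2 or any single node (adjusted p up to 0.151), and with muscle libraries 2 and 3 summed (0.0615). Spry2 measured 209, 204 and 72.6 CPM in muscle libraries 2, 3 and 4, against 111, 89.8 and 84.2 CPM in nodes 1 to 3. It was called only in settings without muscle library 4 or with that library summed into another (log2 fold change 0.82 ± 0.34 and adjusted p = 0.290 with all libraries, 1.12 ± 0.15 and 1.87e-04 without muscle library 4). The factor Etv1 lay just outside the threshold (1.61 ± 0.39, adjusted p = 0.0547), and passed it in 6 of 15 alternatives, among them DESeq2 (0.0261) and limma-voom (0.0292) on all 6 libraries and edgeR without muscle library 4 (0.00809). Spry4 (0.29 ± 0.58), the MAP kinase phosphatase Dusp6 (0.01 ± 0.38) and Etv5 (1.55 ± 0.69, with 32.2% of its 25-base words in other genes) were not called, and Etv4 had at most 4 counts in a library. Without muscle library 4, 8 of 61 tested genes of all the pathway lists were called higher and 3 lower, beside 4.79% and 7.58% of all genes in that fit. The higher genes were 3 feedback and target genes, 4 genes of FGF binding and heparan sulfate, and 1 receptor partner. The lower genes were 2 of FGF binding and heparan sulfate and 1 receptor partner. The mural marker sum given with Fgf1, in which Cspg4 made most of the difference, lay higher in the same libraries as Gpc4 and Spry1. The part of that sum in their results was not tested.

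Immediate early genes, which growth factors and tissue dissociation both switch on within minutes, were low in all 3 muscle libraries. Of 21 tested, 17 fell in muscle and the other 4 were not called, where 2.86% of all tested genes were called lower. The median log2 fold change of the list was -2.20. Their sum was 3424, 4179 and 3540 CPM in muscle libraries 2, 3 and 4, against 24133, 22399 and 24270 CPM in nodes 1 to 3. Fosb, a member of the AP-1 family, had a log2 fold change of -5.06 ± 0.26, and Atf3, a stress-induced factor, of -5.01 ± 0.26 (edgeR adjusted p = 4.39e-05 each). Junb (-3.03 ± 0.18) and Fos (-3.67 ± 0.22) followed, both with an adjusted p of 7.23e-05. The immediate early sums differed between the same libraries as Fgf10 and Fgf1 did, and their part in the FGF results was not tested.

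**Figure D5:**
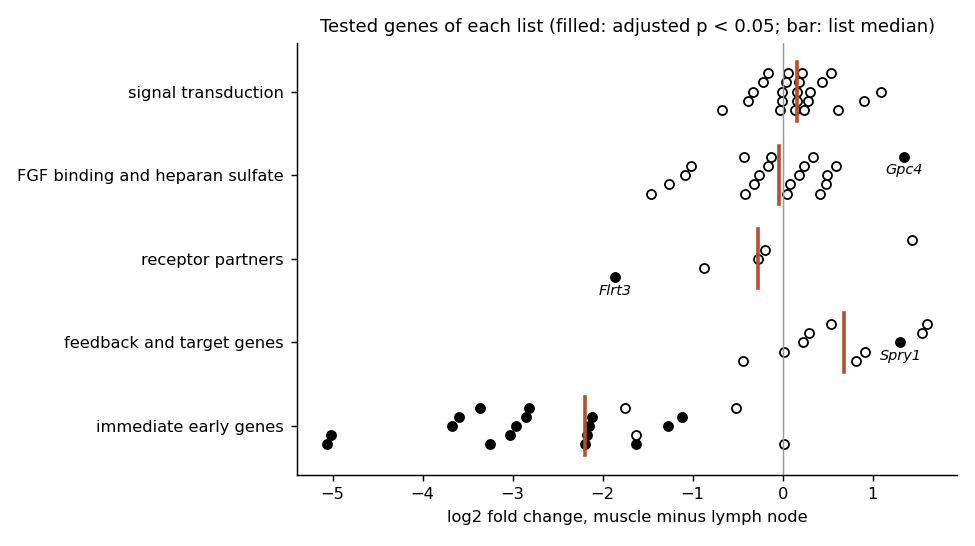
Log2 fold changes, muscle minus lymph node, of the tested genes of each list over all 6 libraries; filled points passed an adjusted p of 0.05 and bars are list medians. Gpc4, Flrt3 and Spry1 are the only filled points of the FGF pathway lists, and 17 of 21 immediate early genes are filled, all below 0.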

How the data were processed

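The deposited table holds raw counts per gene symbol for 6 libraries, made by the authors with STAR 2.5.4 and featureCounts on mm10, per the submitters' processing notes. Per the labels' protocols, polyadenylated RNA was primed with oligo(dT), amplified, tagmented and read as paired 25-base reads. No molecular identifiers are described, so counting intervals and limits cover counting error only. The sources used here do not give strand use, the annotation release or how reads with several alignments were treated.

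Lymph node columns match single titles; muscle columns match the tissue only. edgeR 4.0.16 in R 4.3.3 was run on all genes: genes passing filterByExpr (10823) were scaled by TMM and compared between tissues over 6 libraries by quasi-likelihood F tests, with Benjamini-Hochberg adjustment over all tested genes and a threshold of 0.05. Each standard error is the absolute log2 fold change over the root of its F value. CPM values use the TMM library sizes. The procedure was tested on simulated data, in which all libraries of a tissue shared the same scaled mean and spread per gene. That test therefore does not cover a library that stands apart, as muscle library 4 does. Alternatives were RLE and upper-quartile scaling, no filter, a stricter filter (3 or more libraries at 10 CPM), limma-voom (limma 3.58.1), DESeq2 1.42.0, leaving out each library, and summing each pair of muscle libraries. Likeness is Pearson r of log2 CPM with a prior count of 2. Lengths, overlaps and shared 25-base words come from GENCODE M21 (GRCm38, which is mm10), where 93.1% of the symbols were found, and promoters from RefSeq (GRCm38.p6).

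The FGF genes, lists and tests were chosen with earlier results of these data known. Named genes are all 9 FGF genes, up to 4 called genes of each list by smallest p, 14 given genes whatever their result, and the 2 most similar genes of each tested FGF gene. The motifs were chosen after the counts were seen.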

Additional observations from a re-analysis of the deposited data

How the results depend on the processing

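No paired analysis was possible because the muscle columns could not be linked to single titles, so their replicate numbers are not known.

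Depth limits the low genes: 1 count is worth 2.69 CPM in muscle library 4 and at most 0.768 CPM elsewhere. Fgf10 kept its call in all 15 alternatives. Of 104 alternative values of the 7 tested FGF genes, 89 kept direction and side of the threshold, 5 (all Fgf1) lost the call, 3 (all Fgf7) gained it and 7 (all Fgf2) turned sign. Fgf2 was -0.15 with no filter, -0.05, -0.01 and -0.01 with muscle libraries 2 and 3, 2 and 4, or 3 and 4 summed (-0.0517, -0.00598 and -0.00746), and between -0.16 and 0.17 without 1 library. Dusp6 turned to -0.14 with no filter, -0.031 with DESeq2 and -0.11 with muscle libraries 2 and 3 summed, and ranged from -0.44 to 0.31 without 1 library, Spry4 from -0.14 to 0.65 and Sulf2 from -1.03 to 0.0040, the last without muscle library 4.

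Leaving out 1 library gave between 28 (without lymph node library 2) and 539 (without muscle library 4) higher genes over the whole table and between 114 and 852 lower. Among the FGF genes it gave 0 or 1 higher and 1 or 2 lower, and in the pathway lists between 0 and 8 higher and between 0 and 3 lower. With no filter 419 genes were higher and 526 lower, with 4 pathway genes lower; DESeq2 gave 260 higher and 2 pathway genes lower; RLE scaling and the 10 CPM filter gave 0 pathway genes lower. Summing muscle libraries 2 and 3 gave 55 higher and 167 lower genes, 0 higher FGF genes, 1 higher and 0 lower pathway gene. Summing 2 and 4 gave 563 and 872 genes, 2 lower FGF genes, and 9 higher and 3 lower pathway genes; summing 3 and 4 gave 494 and 772, 2 lower FGF genes, and 8 and 3. The cause of these shifts was not tested.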

Other observations

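Among the other 17 FGF ligands, which were too scarce to test, 3 were unevenly counted, and these were singled out after their values were seen. Fgf16 had 9, 15 and 1 counts in muscle libraries 2, 3 and 4, against 0, 2 and 2 in lymph node libraries 1 to 3, a scaled ratio of 10.99 with an exact 95% counting interval from 3.79 to 43.4. Fgf11, an intracellular relative of the secreted FGFs, had 1, 0 and 1 counts in muscle and 5, 11 and 9 in lymph node, a ratio, lymph node over muscle, of 7.11 with an interval from 1.77 to 61.9. Fgf14, also intracellular, had 2, 15 and 12 counts in muscle and 10, 6 and 4 in lymph node, so its muscle libraries lie on both sides of the lymph node libraries. These intervals leave out the spread between libraries, and no test across libraries was made.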
